A study of Mus musculus with 2 samples.

Results

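The genes described here are 6 metabotropic glutamate receptors (*Grm2*, *Grm3*, *Grm4*, *Grm5*, *Grm7* and *Grm8*), taken by symbol as 6 of the 31055 rows of the count tables of 2 single-nucleus RNA libraries from the mouse olfactory bulb (OB). All 6 were measured in both libraries. In each library the animal was an adult WT mouse whose cortex had received the retrogradely transported virus retroAAV-CAG-H2B-GFP, which is taken up by axon endings and makes a green fluorescent histone from the ubiquitous CAG promoter, so that the reporter does not depend on cell type. The virus was placed in the anterior olfactory nucleus for the AON library and in the posterior piriform cortex for the pPCx library. Nuclei positive for GFP and for the DNA dye DRAQ5 were sorted from the bulb and sequenced with the 10x 3′ chemistry. The study's methods give 1 PCx-injected female of 11 weeks for the pPCx library. They do not describe the AON library, for which only the labels were used, and these give no sex and no age beyond adult.

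Metabotropic glutamate receptors are G protein-coupled receptors that sense the glutamate released at excitatory synapses. Group I receptors (here *Grm5*) couple to Gq and sit mostly at postsynaptic sites, where Homer and Shank proteins hold them. Group II (*Grm2*, *Grm3*) and group III (*Grm4*, *Grm7*, *Grm8*) couple to Gi/o and many act on axon terminals, where they lower transmitter release. In the bulb, mitral and tufted cells are the glutamatergic projection neurons, and granule and periglomerular cells are GABAergic interneurons that exchange signals with them at dendrodendritic synapses.

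Nuclei with at least 1000 genes were kept, 102 of 188 in the AON library (2868398 UMIs, unique molecular identifiers that each mark 1 captured RNA molecule) and 63 of 74 in the pPCx library (2401385 UMIs). No cell barcode was shared between the libraries. Nuclei with more UMIs of *Slc17a7*, *Slc17a6*, *Tbx21* and *Cdhr1* than of *Gad1*, *Gad2* and *Slc32a1* were called projection neurons, and the reverse with at least 3 UMIs of the latter genes was called GABAergic. The AON library held 25 projection neuron, 47 GABAergic and 30 remaining nuclei. Of the remaining nuclei 18 carried astrocyte markers, 9 carried oligodendrocyte markers and 3 carried neither. Astrocyte-marker nuclei had at least 3 UMIs of the astrocyte list and more than of the oligodendrocyte list. The reverse was asked of oligodendrocyte-marker nuclei. This cut is low, as single AON GABAergic nuclei had up to 71 astrocyte-list UMIs. The pPCx library held 59 projection neuron nuclei, 2 GABAergic nuclei and 2 remaining nuclei with astrocyte markers. The projection marker genes define the class, so their UMIs are no separate check of the label. Outside the rule, the astrocyte list stood at 18.9 CPM in pPCx projection neurons. CPM counts the UMIs of a gene or list per 1e+06 UMIs of the class. A list of cortical marker genes stood at 67.9 CPM there and at 107 CPM in AON projection neurons, above its level in AON GABAergic nuclei. *Vcan*, from a list for oligodendrocyte precursors, stood at 256 CPM in pPCx projection neurons. *Tbx21* had a UMI in 43 of 59 pPCx and 10 of 25 AON projection neuron nuclei. What these levels say of the label was not tested. In the AON library 10 of 25 projection neuron nuclei rested on 1 to 3 marker UMIs, against 3 of 59 in the pPCx library. Of those 10, 3 had 87 to 119 astrocyte-list UMIs and 1 projection marker UMI each. These nuclei put the astrocyte list at 308 CPM in AON projection neurons and at 38.8 CPM without the 3. The deepest AON projection neuron nucleus (274993 UMIs) supplied 24.6% of all UMIs in its class. With 1 library in each group no test between groups was possible, and every interval below is a 95% interval that covers counting error only. The AON and pPCx groups differ in library, animal and injection site at once, which cannot be told apart.

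Nearly all receptor UMIs of projection neurons came from the group III genes *Grm7* and *Grm8*. In pPCx projection neurons *Grm7* supplied 55.0% and *Grm8* 43.6% of 23003 receptor UMIs, and in AON projection neurons the shares were 65.2% and 33.3% of 11741. AON GABAergic nuclei had another make-up, with *Grm5* at 46.6%, *Grm8* at 23.8% and *Grm7* at 22.0% of 5729 receptor UMIs. In nuclei with glial markers the group II gene *Grm3* led, with 55.7% of 494 receptor UMIs in astrocyte-marker nuclei and 82.3% of 271 in oligodendrocyte-marker nuclei. The bars of receptor make-up show these 4 patterns side by side.

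**Figure D1:**
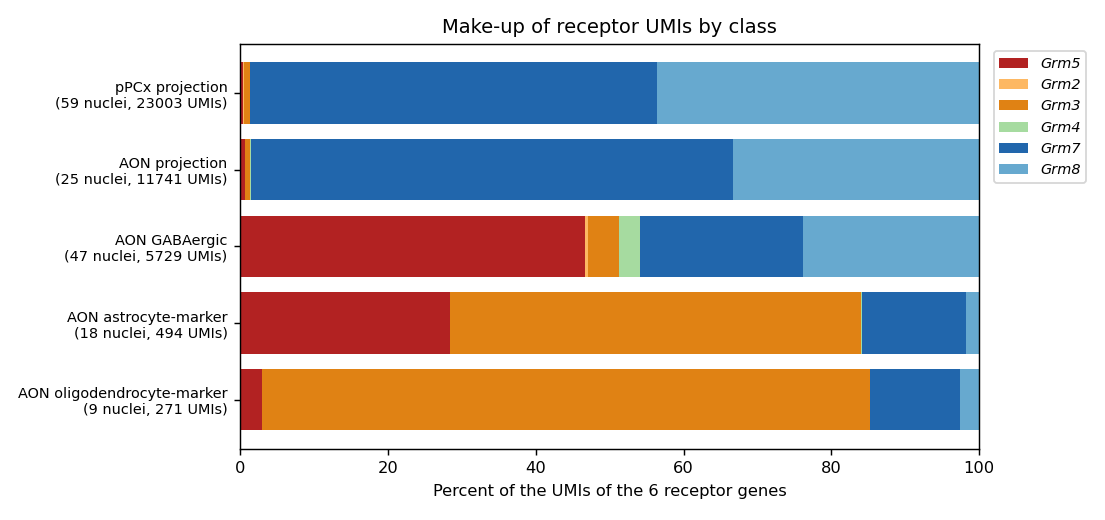
Percent of the UMIs of the 6 receptor genes that each gene supplied (x axis, 0 to 100%) in 5 classes of nuclei (rows, with the number of nuclei and of receptor UMIs). *Grm7* and *Grm8* fill most of both projection neuron bars, *Grm5* is the longest piece of the GABAergic bar (46.6%), and *Grm3* is the longest piece in astrocyte-marker (55.7%) and oligodendrocyte-marker nuclei (82.3%).

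The same order was seen nucleus by nucleus. *Grm7* had the most UMIs of the 6 genes in 48 of 59 pPCx projection neuron nuclei and *Grm8* in the other 11. In AON projection neurons *Grm7* led in 14 of 25 nuclei, *Grm8* in 8 and *Grm3* in 2, 1 nucleus was tied at 1 UMI of *Grm5* and *Grm7*, and both nuclei led by *Grm3* were among the 3 with astrocyte markers. *Grm5* led in 29 of 47 AON GABAergic nuclei and in both pPCx GABAergic nuclei. Another 2 AON GABAergic nuclei were tied, 1 between *Grm5* and *Grm8* and 1 between *Grm7* and *Grm8*. *Grm3* led in 12 of 18 astrocyte-marker and 7 of 9 oligodendrocyte-marker nuclei of the AON library.

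**Figure D2:**
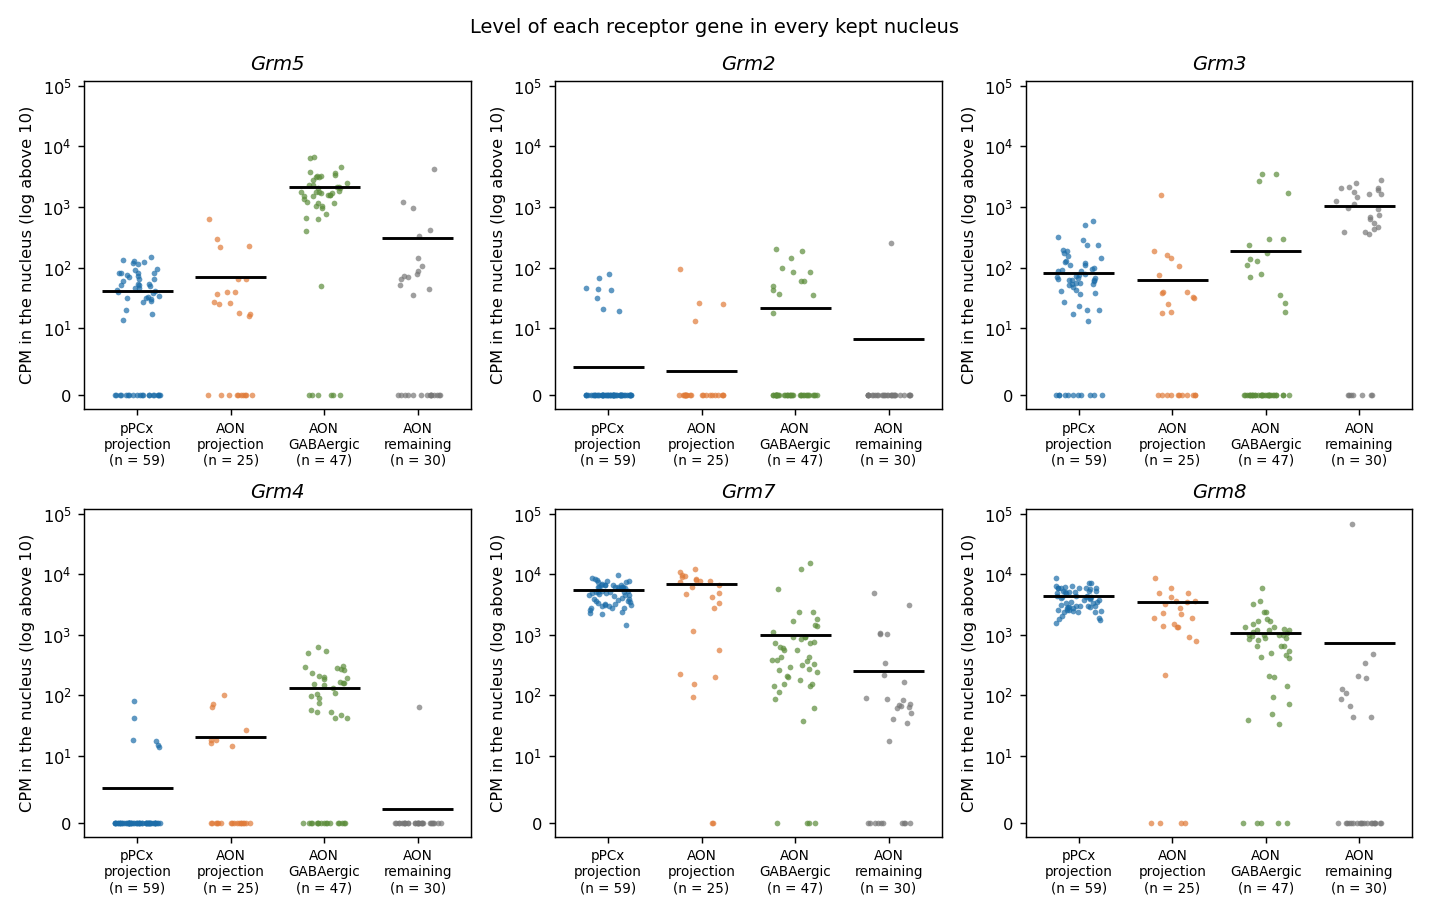
CPM of each receptor gene in every kept nucleus (y axis, log scale above 10 CPM and linear below), in pPCx projection neurons, AON projection neurons, AON GABAergic nuclei and AON remaining nuclei. Points are nuclei, and horizontal lines are the CPM of the summed class. *Grm5* is high in GABAergic nuclei (2101 CPM) and low in both sets of projection neurons, *Grm7* and *Grm8* show the reverse, and 1 remaining nucleus reaches 66421 CPM of *Grm8*.

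Group III. *Grm7* (ENSMUSG00000056755), which encodes a receptor found at the active zones of axon terminals, spans 921650 bp of the plus strand of chromosome 6 (GRCm38, 110645581 to 111567230), and exons cover 0.639% of this span. Its level was 5436 CPM (5342 to 5532) in pPCx projection neurons and 6849 CPM (6697 to 7005) in AON projection neurons, against 993 CPM (939 to 1049) in AON GABAergic nuclei and 252 CPM (209 to 301) in AON remaining nuclei. Single pPCx projection neuron nuclei ranged from 1466 to 9641 CPM with a median of 5038, and AON ones ranged from 0 to 12050 CPM with a median of 4909. All 59 pPCx projection neuron nuclei lay above the median AON GABAergic nucleus (388 CPM), and 30 of 59 lay above the highest AON remaining nucleus (4940 CPM). The ranges overlapped at the top, because 2 GABAergic nuclei exceeded every pPCx projection neuron nucleus and the highest had 15399 CPM.

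*Grm8* (ENSMUSG00000024211), another presynaptic autoreceptor, spans 860060 bp of the minus strand of chromosome 6 (27275119 to 28135178), of which 1.15% is exonic. Its level was 4311 CPM (4227 to 4396) in pPCx and 3502 CPM (3393 to 3613) in AON projection neurons, and 1073 CPM (1017 to 1132) in AON GABAergic nuclei. Single pPCx projection neuron nuclei ranged from 1588 to 8482 CPM with a median of 3956, AON ones from 0 to 8782 CPM with a median of 1880, and AON GABAergic ones from 0 to 5913 CPM with a median of 880. No pPCx projection neuron nucleus lay below the GABAergic median, and 8 of 59 lay above the highest GABAergic nucleus. AON remaining nuclei summed to 719 CPM, but 325 of their 345 *Grm8* UMIs came from 1 nucleus of 4893 UMIs that had no marker UMI of any of the 4 main classes. Without nuclei of no glial class, *Grm8* stood at 33.1 CPM (15.1 to 62.8) in astrocyte-marker and 38.01 CPM (15.3 to 78.3) in oligodendrocyte-marker nuclei.

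The promoters of these genes are shown because *Grm7* and *Grm8* were the 2 receptor genes with the highest level in both sets of projection neurons and *Grm3* the one with the highest level in glial-marker nuclei. RefSeq sequences (GRCm38.p6) were matched for 4 of the 6 genes, all but *Grm4* and *Grm5*. The runs are the bases before the most upstream listed start, on the gene's strand, 250 bases for *Grm7* (chr6:110645262-110645511) and *Grm3* (chr5:9725353-9725602) and 218 for *Grm8* (chr6:28135179-28135396), whose run stops at the start of the GENCODE gene model, short of the RefSeq start. All 250 bases were searched. Capitals mark GGGCGG, the GC box, and CCCNNGGG, the core letters read by Ebf factors, each searched on both strands.
Grm7: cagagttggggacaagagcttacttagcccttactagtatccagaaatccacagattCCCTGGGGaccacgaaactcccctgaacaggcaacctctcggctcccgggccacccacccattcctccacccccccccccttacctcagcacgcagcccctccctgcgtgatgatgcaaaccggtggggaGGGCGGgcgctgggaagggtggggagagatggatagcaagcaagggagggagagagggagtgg
Grm8: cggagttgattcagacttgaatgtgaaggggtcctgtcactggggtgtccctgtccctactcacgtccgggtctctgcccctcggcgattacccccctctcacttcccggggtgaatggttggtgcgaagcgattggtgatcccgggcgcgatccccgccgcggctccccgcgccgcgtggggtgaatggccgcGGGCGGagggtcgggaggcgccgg
Grm3: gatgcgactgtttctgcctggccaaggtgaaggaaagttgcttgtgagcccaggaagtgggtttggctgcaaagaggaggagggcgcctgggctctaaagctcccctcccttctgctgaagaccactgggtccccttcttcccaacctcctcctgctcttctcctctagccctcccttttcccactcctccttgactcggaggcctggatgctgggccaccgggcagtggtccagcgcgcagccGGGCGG
A GGGCGG lay in each of these 3 runs, as in 32.7% of all 32851 promoters of 250 bases, and in the promoter of *Grm2*, which held 3. A CCCNNGGG lay 193 bases before the upstream start of *Grm7* and 153 bases before that of *Grm2*, and in 11.8% of all promoters. No marked matches overlapped. The T-box letters GGTGTGA, searched likewise, lay in none of the windows of the 4 genes and in 3.33% of all promoters. The most upstream *Grm8* window of 250 bases held 29 CG pairs against a median of 6 over all promoters, and those of *Grm7* and *Grm3* held 8 each.

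*Grm4* (ENSMUSG00000063239), a presynaptic receptor on chromosome 17 (minus strand, 27422387 to 27521403), was low in projection neurons and higher in interneurons. It had 167 UMIs in AON GABAergic nuclei (131 CPM, 112 to 153), 23 in AON projection neurons (20.6 CPM, 13.0 to 30.9), 12 in pPCx projection neurons (5.15 CPM, 2.66 to 9.003) and 1 in AON remaining nuclei (2.08 CPM). A UMI was found in 30 of 47 GABAergic nuclei, 8 of 25 AON and 6 of 59 pPCx projection neuron nuclei and 1 of 30 remaining nuclei. Of the 47 GABAergic nuclei, 21 lay above the highest AON projection neuron nucleus (99.3 CPM). After each nucleus was thinned to 5000 UMIs, leaving out 3 shallower AON projection neuron nuclei, the shares with a *Grm4* UMI were 36.2% (GABAergic), 13.6% (AON projection neurons) and 0 of 59 (pPCx projection neurons).

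Group I. *Grm5* (ENSMUSG00000049583; chromosome 7, plus strand, 87584168 to 88134907) was the leading receptor gene of GABAergic nuclei, at 2101 CPM (2022 to 2182) in the AON library. Single GABAergic nuclei ranged from 0 to 6751 CPM with a median of 1688, and 41 of 47 had a UMI. AON projection neurons had 69.8 CPM (55.2 to 87.1), with a median nucleus of 18.0 CPM and a highest of 637 CPM, and pPCx projection neurons had 41.2 CPM (33.4 to 50.4), with a median of 33.9 CPM and a highest of 148 CPM. No projection neuron nucleus of either library reached the GABAergic median, and 40 of 47 GABAergic nuclei lay above the highest pPCx projection neuron nucleus. At 5000 UMIs per nucleus, 85.1% (71.7 to 93.8) of GABAergic nuclei kept a *Grm5* UMI, compared with 13.6% (6.04 to 24.98) of pPCx projection neuron nuclei. The 2 pPCx GABAergic nuclei held 60 *Grm5* UMIs, or 1006 CPM (767 to 1294). In astrocyte-marker nuclei *Grm5* stood at 514 CPM (433 to 607), but 9 of those 18 nuclei had none and 1 nucleus held 76 of the 140 UMIs. Oligodendrocyte-marker nuclei had 43.4 CPM (18.8 to 85.6).

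Group II. *Grm3* (ENSMUSG00000003974; chromosome 5, minus strand, 9485541 to 9725170) was the receptor gene of glial-marker nuclei, at 1010 CPM (894 to 1137) in astrocyte-marker and 1211 CPM (1057 to 1381) in oligodendrocyte-marker nuclei of the AON library. A *Grm3* UMI was found in 15 of 18 and in 7 of 9 of them, and the nuclei ranged from 0 to 2139 CPM and from 0 to 2771 CPM. pPCx projection neurons had 82.0 CPM (70.8 to 94.5), spread over 48 of 59 nuclei, and none of them reached the median AON remaining nucleus (713 CPM). AON projection neurons had 61.7 CPM (48.0 to 78.1). The 3 nuclei with astrocyte markers held 20 of those 69 UMIs, and without them the level was 45.3 CPM (33.5 to 59.8). In GABAergic nuclei *Grm3* stood at 187 CPM (164 to 213) and was found in 16 of 47 nuclei. That level came mostly from 4 nuclei with at least 10 *Grm3* UMIs each, which held 192 of the 238 UMIs, and the other 43 nuclei stood at 38.1 CPM, below both sets of projection neurons.

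*Grm2* (ENSMUSG00000023192; chromosome 9, minus strand, 106643095 to 106656082), which encodes a presynaptic autoreceptor, was the least detected of the 6 genes. It had 27 UMIs in 13 of 47 GABAergic nuclei (21.2 CPM, 14.0 to 30.9), 10 in 8 of 59 pPCx projection neuron nuclei (4.29 CPM, 2.06 to 7.90), 4 in 4 of 25 AON projection neuron nuclei (3.58 CPM, 0.975 to 9.17) and 4 in 1 of 30 remaining nuclei. No *Grm2* UMI was found in the 18 astrocyte-marker or 9 oligodendrocyte-marker nuclei, where a floor of 3 UMIs allows up to 11.02 CPM and 16.3 CPM.

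Unspliced RNA of nuclei holds introns, but whether intron reads were counted is not given in the sources used here and was not measured. In case they were, levels of different genes were compared per kilobase of gene span. On this scale *Grm7* and *Grm8* stayed first and second in projection neurons, at 5.90 and 5.01 CPM per kb in the pPCx library and 7.43 and 4.07 in the AON library. *Grm2*, whose span is 13.0 kb, moved from the sixth to the fourth place in pPCx and to the third in AON projection neurons. Its intervals were 0.159 to 0.608 CPM per kb in the pPCx and 0.0751 to 0.706 in the AON library. They overlapped that of *Grm3* in both libraries and those of *Grm4* and *Grm5* in the AON library, so these orders were not resolved. In GABAergic nuclei *Grm5* stayed first at 3.82 CPM per kb, and *Grm2* (1.64 CPM per kb, 1.08 to 2.38), *Grm4* (1.33), *Grm8* (1.25) and *Grm7* (1.08) followed. The intervals of *Grm2*, *Grm4* and *Grm8* overlapped, and that of *Grm7* (1.02 to 1.14) met those of *Grm2* and *Grm4*, so that the order below *Grm5* was not resolved among these genes except for *Grm8* over *Grm7*. Antisense genes with UMIs lie within *Grm7* (*Gm20387*, 52 UMIs) and over *Grm2* (*Gm28111*, 10 UMIs), and whether the counting used strand is not given in the sources used here, so reads at those places are uncertain.

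To ask how projection neurons differ from the local interneurons of the same library, CPM of AON projection neurons was divided by that of AON GABAergic nuclei, with a fold of 2 as the limit for a call. All 6 receptor genes passed it, 2 higher and 4 lower in projection neurons, compared with 15.2% of 9808 genes higher and 16.1% lower. *Grm7* was 6.90-fold higher (6.50 to 7.33) and *Grm8* 3.26-fold higher (3.07 to 3.47). *Grm5* was 30.1-fold lower, with a log2 ratio of -4.90 (-5.26 to -4.59). *Grm4* followed with a log2 ratio of -2.65 (-3.37 to -2.04), *Grm2* with -2.43 (-4.54 to -1.05) and *Grm3* with -1.59 (-2.01 to -1.21). The median log2 ratio of all genes with at least 20 UMIs was -0.06. Group III was therefore not uniform, because *Grm4* lay on the side of *Grm5*. The astrocyte list differed in the same comparison, at 308 CPM in projection neurons and 716 CPM in GABAergic nuclei (6 of 7 markers with a UMI, *Aqp4* at 0), and its part in the result was not tested. The *Grm3* direction turned without the 4 GABAergic nuclei of at least 10 *Grm3* UMIs, a choice made after the values were seen. The log2 ratio was then 0.69, a ratio of 1.62 (1.10 to 2.41), and 5 of 6 genes passed the fold. Without the same 4 nuclei the *Grm7* log2 ratio was 3.49.

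The pPCx projection neurons gave the same directions against the AON GABAergic nuclei, where class and library differ together. Of all 11501 genes 17.8% were higher and 14.1% lower past the fold. The log2 ratios were 2.45 (*Grm7*), 2.01 (*Grm8*), -5.66 (*Grm5*), -4.62 (*Grm4*), -2.26 (*Grm2*) and -1.19 (*Grm3*). The interval of *Grm3* (-1.47 to -0.91) included values within the fold, and without the 4 GABAergic nuclei of at least 10 *Grm3* UMIs its direction turned (1.10, a ratio of 2.16, 1.55 to 3.04). The *Grm7* value was then 3.15. These ratios share their denominator with those of the AON library and are not independent of them.

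**Figure D3:**
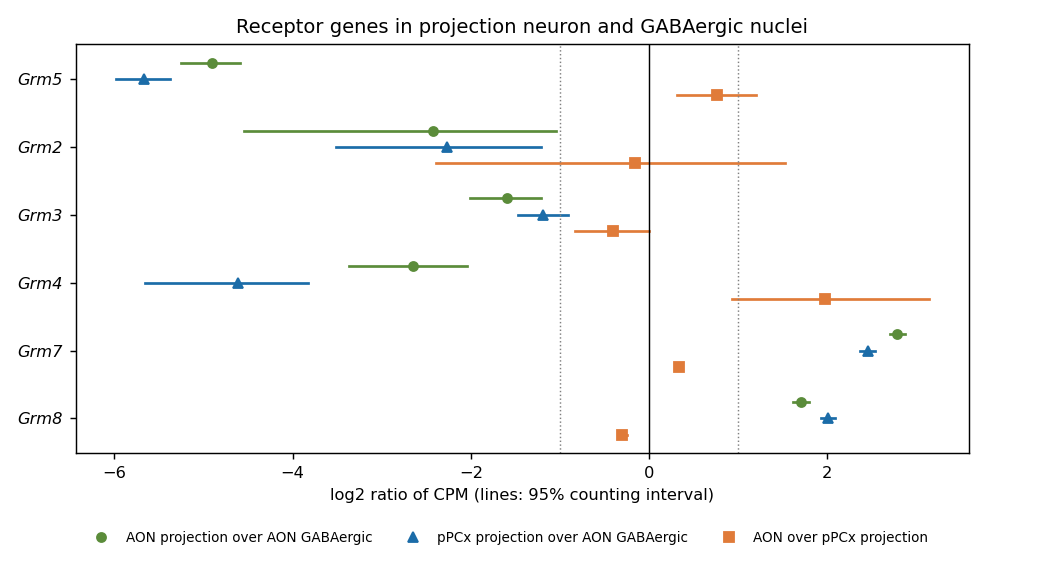
Log2 ratio of CPM (x axis) for the 6 receptor genes (rows) in 3 comparisons, with points for the ratio, lines for the 95% counting interval and dotted lines at the fold of 2 in each direction. *Grm7* and *Grm8* are to the right and *Grm5*, *Grm2*, *Grm3* and *Grm4* to the left for projection neurons of both libraries over GABAergic nuclei, where *Grm3* turns without 4 GABAergic nuclei (0.69 and 1.10), and between the 2 sets of projection neurons only *Grm4* (1.97) is past the fold.

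Remaining nuclei served as a mostly glial reference within the AON library. Of the 5 receptor genes with at least 20 UMIs in the 2 classes, *Grm7* (log2 ratio 4.76, 4.50 to 5.03), *Grm4* (2.75, 0.68 to 8.67, with 1 UMI in remaining nuclei) and *Grm8* (2.28) were higher in projection neurons, and *Grm3* (-4.08, -4.47 to -3.72) and *Grm5* (-2.14, -2.56 to -1.74) were lower. Of all 8579 genes 18.2% were higher and 23.4% lower. The *Grm8* value was set by the 1 nucleus of 325 UMIs, and without remaining nuclei of no glial class it was 6.60. When each nucleus was given equal weight it was 0.10. GABAergic nuclei were higher than remaining nuclei in *Grm4* (5.40), *Grm5* (2.76), *Grm7* (1.97) and *Grm2* (1.21, -0.17 to 3.32) and lower in *Grm3* (-2.49), against 18.1% of 8926 genes higher and 21.1% lower. *Grm8* was within the fold at 0.58 and past it at 4.89 without remaining nuclei of no glial class. With nuclei weighted equally it was -1.17. The *Grm7* direction turned (-0.80) when barcodes of under 1000 genes were included and was 1.27 without the 4 GABAergic nuclei of at least 10 *Grm3* UMIs, and the *Grm3* value was then -4.77.

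The comparison that the injections imply is that of AON and pPCx projection neurons. Of the 5 receptor genes with at least 20 UMIs, 1 passed the fold of 2, *Grm4*, which was higher in the AON library, where 6.66% of 11172 genes were higher and 9.82% lower. The *Grm4* ratio was 3.99-fold (1.91 to 8.81) and rested on 23 and 12 UMIs, so that 0 genes passed when at least 50 UMIs were asked for. *Grm5* was 1.69-fold higher (1.24 to 2.31), and 1 AON nucleus held 35 of its 78 UMIs. *Grm7* was 1.26-fold higher in the AON library (1.22 to 1.30) and *Grm8* 1.23-fold lower (1.19 to 1.28). *Grm3* had a log2 ratio of -0.40 (-0.83 to -0.01), which turned to 0.13 with equal weights of nuclei and was -0.85 without the 3 nuclei with astrocyte markers. *Grm2*, with 4 and 10 UMIs, could not be separated (-0.16, -2.39 to 1.53). The *Grm7* difference depended on how nuclei were weighted, with a log2 ratio of 0.33 for summed UMIs and of -0.0047 when each nucleus counted equally. For *Grm8* these values were -0.30 and -0.74.

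The balance between *Grm7* and *Grm8* within a nucleus also differed between the libraries. The opposite directions of the summed levels already imply such a difference, so it is not a separate result. The share of *Grm7* in the UMIs of the pair was taken in nuclei with at least 20 such UMIs. In pPCx projection neurons it ranged from 31.9% to 74.4% with a median of 55.5%, and 0 of 59 nuclei exceeded 75%. In AON projection neurons it ranged from 32.5% to 88.3% with a median of 76.9%, and 9 of 17 nuclei exceeded 75%. Among the 15 AON nuclei with at least 4 projection marker UMIs, the median was 72.4% and 7 exceeded 75%. The ranges overlapped over most of their length, and the AON values reached higher. The 2 genes had a Spearman rho of 0.77 over the 59 pPCx nuclei and of 0.30 over the 25 AON nuclei. Those values share the nucleus and its depth, with which *Grm7* itself had a rho of 0.48 and 0.44.

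**Figure D4:**
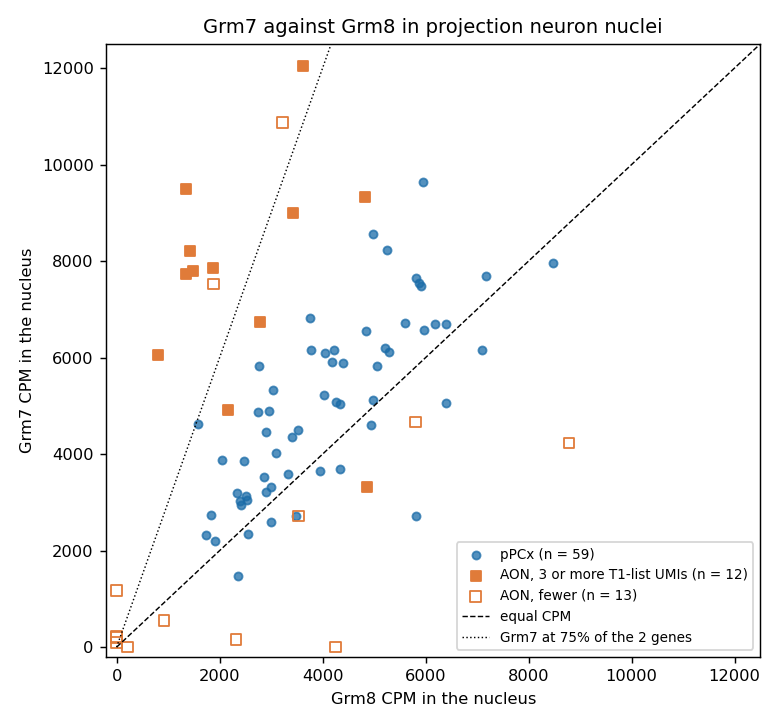
*Grm7* CPM (y axis) against *Grm8* CPM (x axis) in projection neuron nuclei of the pPCx library (circles, n = 59) and the AON library (squares, filled where the nucleus had at least 3 UMIs of the T1 list, n = 12, and open otherwise, n = 13). The dashed line marks equal CPM and the dotted line a *Grm7* share of 75%. pPCx nuclei lie in a band around a share of 55.5%, while most filled AON squares lie to its left, at higher *Grm7* for the same *Grm8*.

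The balance was also read by genes listed for projection neuron types, in a split chosen after the values were seen. Of the AON projection neuron nuclei, 12 had at least 3 UMIs of the genes that the study lists for its tufted cell type T1, and 0 of the pPCx nuclei did. This cut does not mark tufted cells by itself, since some AON GABAergic nuclei also reached it, 1 of them with 15 UMIs. The AON projection neuron nucleus of 274993 UMIs passed with 6. In those 12 the median *Grm7* share was 78.9% (40.5% to 88.3%), and *Grm7* led in 11. They were deep nuclei (22157 to 274993 UMIs), so the split also follows depth, whose part was not tested. Of the 13 other AON nuclei 5 had enough UMIs, and their median was 44.6%. Among the 17 AON nuclei with at least 20 UMIs of the pair, 4 had more *Grm8* than *Grm7*, and 3 of them were the AON nuclei with the highest summed level of *Ebf1* and *Cntn6* (491, 608 and 1096 CPM), which the study lists for its mitral cell type M1. The fourth had 12.8 CPM. The nucleus at 491 CPM also had 9 T1-list UMIs, and was the 1 of the 12 T1-list nuclei in which *Grm8* led. Its *Ebf1* and *Cntn6* level lay below the cut used for the pPCx nuclei further on. These 4 nuclei were picked by their share, and their *Ebf1* and *Cntn6* values are a description.

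All 23 *Grm4* UMIs of AON projection neurons lay in the 12 nuclei with T1-list UMIs, in 8 of them, at 27.0 CPM. The other 13 nuclei had none. Against a floor of 3 UMIs there, *Grm4* was 2.41-fold higher in the first set. That value leaves out the counting error of the 23 UMIs (17.1 to 40.6 CPM), so it is no lower limit. *Grm7* was 2.57-fold higher (2.39 to 2.77) in those 12 nuclei than in the other 13, and *Grm8* was 1.48-fold lower (1.38 to 1.59). The *Grm8* direction turned with equal weights of nuclei, with means of 2494 CPM in the 12 and 2379 CPM in the 13. Median nuclei were at 2020 and 1880 CPM, and 1 nucleus held 673 of the 1242 *Grm8* UMIs of the 13. The other 13 had a median depth of 7675 UMIs and included the 3 nuclei with astrocyte markers.

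The pPCx nuclei fell into 37 with at least 500 CPM of *Ebf1* plus *Cntn6* and 22 below, with 0 nuclei between 250 and 1000 CPM. These genes are only a part of the study's M1 list, so the split is no call of type. By regulon activity, the study's own classifiers called most projection neurons of this library M2 and few M1. Both *Grm7* and *Grm8* were higher in the first set. *Grm7* stood at 6185 CPM (6051 to 6322) in the first set and 4483 CPM (4354 to 4614) in the second, with median nuclei of 6121 and 3757 CPM. *Grm8* stood at 5085 CPM (4963 to 5209) and 3327 CPM (3216 to 3440), with medians of 4975 and 2880 CPM. The ratios were 1.38 (1.33 to 1.43) and 1.53 (1.47 to 1.59), and the median *Grm7* shares were 54.6% and 56.3%. *Grm3* was 1.76-fold higher in the first set (1.28 to 2.43). All 10 *Grm2* UMIs lay there too, in 8 of 37 nuclei, and the second set of 22 nuclei had 0. For *Grm5* (47.6 and 33.2 CPM, ratio 0.929 to 2.25) and *Grm4* (5.37 and 4.88 CPM) the intervals included no difference. The first set was the shallower one, with a median of 31440 UMIs against 41132.

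Most GABAergic nuclei of the AON library had UMIs of several receptor genes. At least 3 UMIs of *Grm5* were found in 40 of 47, and 38 of these also had at least 3 of *Grm7*, 35 of *Grm8* and 20 of *Grm4*. All but 1 of the 21 nuclei with at least 3 *Grm4* UMIs had at least 3 of *Grm5*. In astrocyte-marker nuclei at least 3 UMIs were found in 2 of 18 for *Grm7* and in 0 for *Grm8* and *Grm4*, at a median of 14348 UMIs a nucleus against 26129 in GABAergic nuclei. A single nucleus with only 8 astrocyte-list UMIs held 55 of the 69 *Grm7* UMIs of these astrocyte-marker nuclei. In oligodendrocyte-marker nuclei (median 14442 UMIs) the counts were 4 of 9 for *Grm7*, 1 for *Grm8* and 0 for *Grm4*. The *Grm7* share of the *Grm7* and *Grm8* pair was lower than in projection neurons, with a median of 28.3%, and it ranged from 0% to 100% over 37 nuclei.

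A set of 4 GABAergic nuclei stood apart within its class. They were picked after the values were seen, for having at least 10 *Grm3* UMIs (18, 27, 69 and 78), and together they held 192 of the 238 *Grm3* UMIs of the class. Their *Grm7* counts were 0, 152, 243 and 128 UMIs in the same order, or 8337 CPM in sum, against 612 CPM in the other 43 nuclei. They had 1 UMI of *Grm5* (15.9 CPM, against 2209 in the other nuclei), 1 of *Grm8* (15.9 CPM, against 1128) and 0 of *Grm4*. The others had 138 CPM of *Grm4*, which was 2.89-fold higher than a floor of 3 UMIs in the 4 nuclei, without counting error. The 4 nuclei had 9871 to 22377 UMIs and 4 to 16 GABAergic marker UMIs. Their astrocyte list stood at 319 CPM in sum, below the 736 CPM of the other nuclei, and 2 of the 4 had 0 astrocyte-list UMIs. The 4 were not alike in this. The nucleus with 18 *Grm3* and 0 *Grm7* UMIs held 11 of their 20 astrocyte-list UMIs, in a depth of 10579 UMIs. Of the interneuron genes, *Meis2* was at 3603 CPM in these and 3675 CPM in the other nuclei, *Synpr* at 2311 and 952 CPM, and *Pbx3* at 765 and 2452 CPM. The receptor pattern was not confined to GABAergic nuclei. An AON astrocyte-marker nucleus with 8 astrocyte-list UMIs had 7 *Grm3* and 55 *Grm7* UMIs. A pPCx astrocyte-marker nucleus with 24 astrocyte-list UMIs had 26 *Grm3* and 20 *Grm7* UMIs. Both had 0 UMIs of *Grm5* and of *Grm8*.

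**Figure D5:**
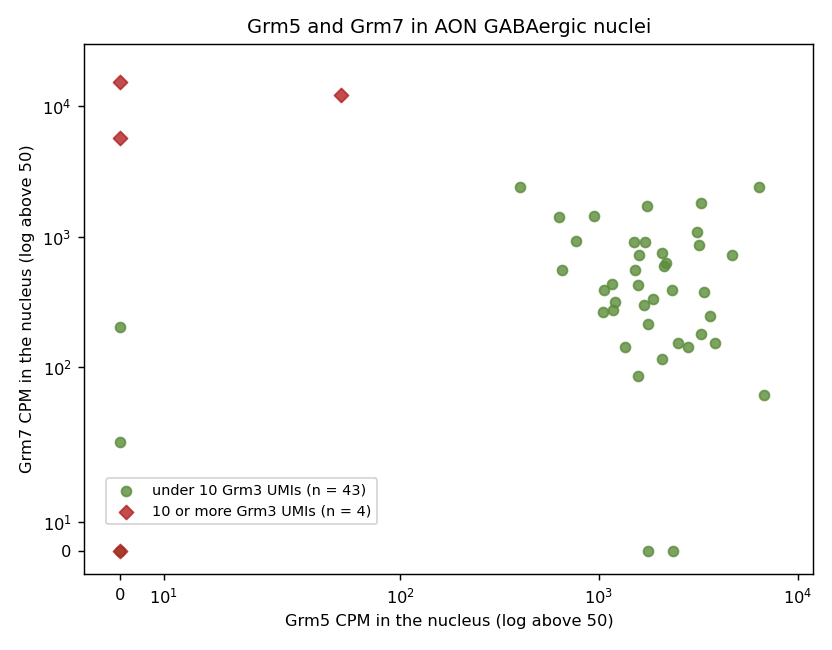
*Grm7* CPM (y axis) against *Grm5* CPM (x axis) in AON GABAergic nuclei, both on a scale that is logarithmic above 50 CPM and linear below. Circles are the 43 nuclei with under 10 *Grm3* UMIs and diamonds the 4 nuclei with at least 10. Diamonds lie at 0 or near 0 of *Grm5*, and 3 of the 4 lie above every circle in *Grm7*, while most circles lie at high *Grm5*.

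The genes with the most similar pattern to each receptor gene were found by Pearson's r of log-scaled values over all 165 kept nuclei, as a description, since these points share 2 libraries, their depth and the classes. For *Grm5* they were *Rbfox3* (0.79), a splicing factor of mature neurons, *Kalrn* (0.79), an exchange factor of dendritic spines, and *Ptpro* (0.72). For *Grm4* they were *Neto1* (0.72), an auxiliary kainate receptor subunit, *Rbfox3* (0.66) and *Trpc4* (0.65). For *Grm7* they were *Gm42303* (0.80), *Rims1* (0.79), an active zone protein, and the adhesion gene *Cntn4* (0.77), and for *Grm8* *Unc80* (0.78), a sodium leak channel subunit, *Ntng1* (0.78), a netrin, and *Meg3* (0.75). *Grm3* was closest to *Daam2* (0.63), *Ptn* (0.59) and *Nfia* (0.58), a factor of the glial lineage. *Grm2*, with 26 positive nuclei, reached 0.41 with *Nkain3*, too weak to read. Within the 84 projection neuron nuclei of both libraries the closest genes were *Ntng1* for *Grm8* (0.79), *Gm42303* for *Grm7* (0.75), *Pde7b* for *Grm3* (0.63) and *Epo* for *Grm5* (0.44). Within the 47 AON GABAergic nuclei the first genes were others, *Kcnb2* for *Grm8* (0.79), *Gm42439* for *Grm5* (0.67), *Slc4a10* for *Grm4* (0.63) and *Kmt2c* for *Grm7* (0.58).

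The proteins that carry receptor signals were taken as 3 lists. Homer, Shank and other binding proteins of the receptors, 9 of which had at least 20 UMIs, were lower in AON projection neurons than in AON GABAergic nuclei for 7 and higher for 0, with a median log2 ratio of -1.82 against -0.06 for all genes, of which 15.2% were higher and 16.1% lower. *Shank2* (-3.40, 26.0 and 278 CPM), *Homer1* (-2.91, 65.3 and 495 CPM), *Elfn1* (-2.51), a synaptic adhesion protein that binds group III receptors, *Grasp* (-2.38) and *Homer2* (-1.82) were among them. *Shank1* and *Shank3* were within the fold. Of 11 measured Gq effectors 3 were lower, including phospholipase C beta 1 (*Plcb1*, -6.02, 38.5 and 2528 CPM) and protein kinase C alpha (*Prkca*, -2.84). Of 15 measured Gi/o effectors 3 were higher, the adenylyl cyclases *Adcy5* (1.53) and *Adcy8* (1.66) and the G protein regulator *Rgs7* (1.86). The 6 that were lower included *Kcnj6* (-2.46), a potassium channel opened by Gi/o, and *Gnai1* (-2.05).

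Between AON and pPCx projection neurons, 1 of 9 scaffold genes was past the fold (*Elfn2*, -1.04, -2.43 to 0.02), and 1 of 13 Gq effectors was higher (*Trpc1*, 1.08) and 3 were lower, including *Plcb1* (-1.95) and the calcium release channel gene *Itpr1* (-1.18). Of 15 Gi/o effectors 4 were higher in the AON library, the G protein-gated potassium channel genes *Kcnj3* (2.55, 2.39 to 2.72, 1001 and 171 CPM) and *Kcnj6* (2.51, 1.86 to 3.24) and the cyclases *Adcy2* (1.99) and *Adcy1* (1.48), and 1 was lower (*Gnaz*, -1.54). The median log2 ratios were 0.02 for scaffolds, -0.31 for Gq effectors and 0.36 for Gi/o effectors, against -0.06 for all 11172 genes, of which 6.66% were higher and 9.82% lower.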

How the data were processed

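RNA of single nuclei was measured in 1 AON and 1 pPCx library. The deposited matrices hold raw UMI counts for each gene in each barcode. The authors produced them with Cell Ranger (3.1.0 by the header of the matrix). The genome build behind the counts is not given for mouse in the sources used here, and 30934 of 31053 Ensembl identifiers matched GENCODE M21 (GRCm38), the source of the coordinates. Nuclei with at least 1000 genes were kept, and the highest mitochondrial share among them was 0.93%. No doublet caller was run. Per class and library, UMIs were summed and scaled to CPM with exact Poisson intervals. Ratios had exact conditional intervals, and log2 ratios had 0.5 UMI added to each sum. Genes with at least 20 UMIs over both classes entered the counts of genes past a fold of 2. Shares of nuclei had exact Clopper-Pearson intervals, also after thinning to 5000 or 10000 UMIs. A count of 0 was read against a floor of 3 UMIs over the class. No test was run, as each group is 1 library. The ratio code was tested on simulated data. Named genes were the 6 receptors, the 3 genes of highest Pearson's r with each (at least 200 UMIs, members with a UMI in at least 20 nuclei within a class) and genes of the 3 lists past the fold. A result for a gene of the Gq list is not reported here. The members, lists and splits were chosen with earlier results of these data known. T1, M1 and marker lists name genes only, and the study chose T1 and M1 on its own data. Alternatives were no filter on nuclei, at least 2000 genes, equal weights of nuclei, omission of very deep nuclei, a stricter class rule (at least 3 UMIs and 2 times the other markers), thinning, 5 UMIs added, a minimum of 50 UMIs for all genes, and rank per kilobase, and those added after the data were seen were 4 omissions of nuclei, the minimum of 50 UMIs for members, and the splits by T1-list and *Grm3* UMIs. Python 3.11.15, numpy 2.4.6, scipy 1.17.1, pandas 2.3.3 and matplotlib 3.10.9 were used.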

Additional observations from a re-analysis of the deposited data

Results flagged for a closer look

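Receptor UMIs were also present in barcodes with under 1000 genes, which enter no comparison above. The 86 such AON barcodes held 1186 *Grm7* UMIs in 46 barcodes (12528 CPM, 11825 to 13262, against 3151 CPM in kept AON nuclei), 139 *Grm8* UMIs in 26 barcodes (1468 CPM) and 16 *Grm5* UMIs in 8 barcodes (169 CPM). A single AON barcode held 503 of these *Grm7* UMIs, which were 12.9% of its 3904 UMIs. The 11 such pPCx barcodes held 275 *Grm8* UMIs in 4 barcodes (25744 CPM, 22791 to 28974, against 4187 CPM in kept pPCx nuclei) and 21 *Grm7* UMIs in 5 barcodes. Of the *Grm8* UMIs, 219 lay in 1 barcode of 580 UMIs, a share of 37.8%. These counts were drawn to attention because they exceed the 3 UMIs that a count of 0 allows, and no control library exists to set them against. What these barcodes are was not tested.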

How the results depend on the processing

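With 1 library in each group the number of nuclei and UMIs limits every value, and no replicate could be left out. No paired analysis was possible because the AON and pPCx groups hold a single library each and no result comes from a test. The number of receptor genes past the fold stayed within 1.5 times its value in all 5 comparisons under the alternatives run, except that between AON and pPCx projection neurons it went from 1 to 0 with a minimum of 50 UMIs. Of the 330 log2 ratios recomputed, 13 had the opposite sign, and 10 of these belonged to ratios within the fold or on under 20 UMIs. The other 3 were *Grm7* in GABAergic over remaining nuclei, 1.97 with the filter and -0.80 without a filter on nuclei (the cause was not tested), and *Grm3* in AON and in pPCx projection neurons over GABAergic nuclei, 0.69 and 1.10 without the 4 GABAergic nuclei that held most *Grm3* UMIs. Ratios of *Grm8* against remaining nuclei followed the 1 nucleus named above. For *Grm4* in AON over pPCx projection neurons the log2 ratio was 1.97 and ranged upwards to 4.23 after thinning to 5000 UMIs, where the pPCx nuclei had 0 UMIs, and downwards to 1.78 with 5 UMIs added. *Grm3* in the same comparison was 0.13 with equal weights of nuclei and -0.82 without nuclei of under 4 marker UMIs.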
